A study of Rattus norvegicus with 3 samples.

Results

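Mitochondrial ribosomal proteins were examined in cultured Schwann cell precursors as the genes whose symbol is Mrpl or Mrps followed by a digit. The rule selected 69 of the 17337 genes listed, 41 with a large-subunit (Mrpl) symbol and 28 with a small-subunit (Mrps) symbol. It reads letters as written, so mrpl9, mrpl11 and mrpl24, which the authors' table spells in lower case, fall outside it and are given beside the members. The 3 libraries form 1 untreated group of wild-type cells from dorsal root ganglia of embryonic rats, grown in a DMEM-based modified Sato medium. RNA was prepared with a stranded kit that selects mRNA. Nothing in the labels ties each library to a culture of its own, and p-values therefore describe spread among these 3 libraries that could be technical. With 1 group, the data give levels within these cultures and no contrast between conditions.

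The mitochondrial ribosome makes the few respiratory chain proteins that mitochondrial DNA encodes. Its RNAs come from mitochondrial DNA, whereas all its proteins are encoded in the nucleus, made in the cytosol and imported. Its large subunit joins amino acids and its small subunit decodes the mRNA. Some of its proteins descend from the bacterial ribosome, and others were gained in the mitochondrial lineage.

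Total counts were 14139074 to 15309526 per library. Of the Schwann cell precursor markers, Sox10 averaged 612 ± 26.0 and Erbb3 581 ± 14.3 TPM (transcript abundance, in which counts are scaled by gene length and library total; SD, n = 3), and each of 8 measured markers exceeded 16 TPM in all libraries. The lowest of the 8 was Tfap2a at 16.7 ± 0.633 TPM. By limma it was below the median of genes at 1 TPM or more in each library, which was 34.3 TPM. The other 7 were above that median, where 37.6% of all genes tested were. Fibroblast markers were also abundant, with a median of 821 TPM over 6 genes, and sensory neuron markers had a median of 130.1 TPM over 5. The cell composition of the cultures was not measured, so fewer cells of a type and less RNA per cell cannot be told apart, and the levels below are averages over all cells present.

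Nearly all members were expressed, and most were at moderate levels. In total, 66 of 69 members reached 1 TPM in each library, against 60.6% of all genes listed. By limma against a level of 1 TPM, 66 of the 68 members with a count were above and 2 below, where 78.4% of the 13345 genes tested were above. Against 10 TPM, 65 were above, where 61.0% of all genes tested were. The median over members was 52.1, 54.2 and 55.2 TPM in replicates 1, 2 and 3, and their summed level was 4137, 4198 and 4193 TPM. The 65 members listed at 1 place in the genome spanned a 17.7-fold range of mean TPM. Of these, 55 had a mean between 30 and 130 TPM, a share of 84.6%, against 39.4% of the detected genes listed at 1 place (genes at 1 TPM or more in each library). The band was chosen after the members' values were seen.

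A stricter level was the median of the detected genes, which was 34.3 ± 0.357 TPM (SD, n = 3). By limma with Benjamini-Hochberg adjustment over all genes tested, 50 members were above it, where 37.6% of genes tested were, and 13 were below it, where 58.9% were. The 5 members that passed in neither direction were Mrpl14, Mrpl15, Mrpl46, Mrps5 and Mrps18c, at means of 32.3 to 36.9 TPM. Their adjusted p ran from 0.0504 for Mrpl15 to 0.779 for Mrps5 by limma. Mrpl36 had no count and was not tested.

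**Figure D1:**
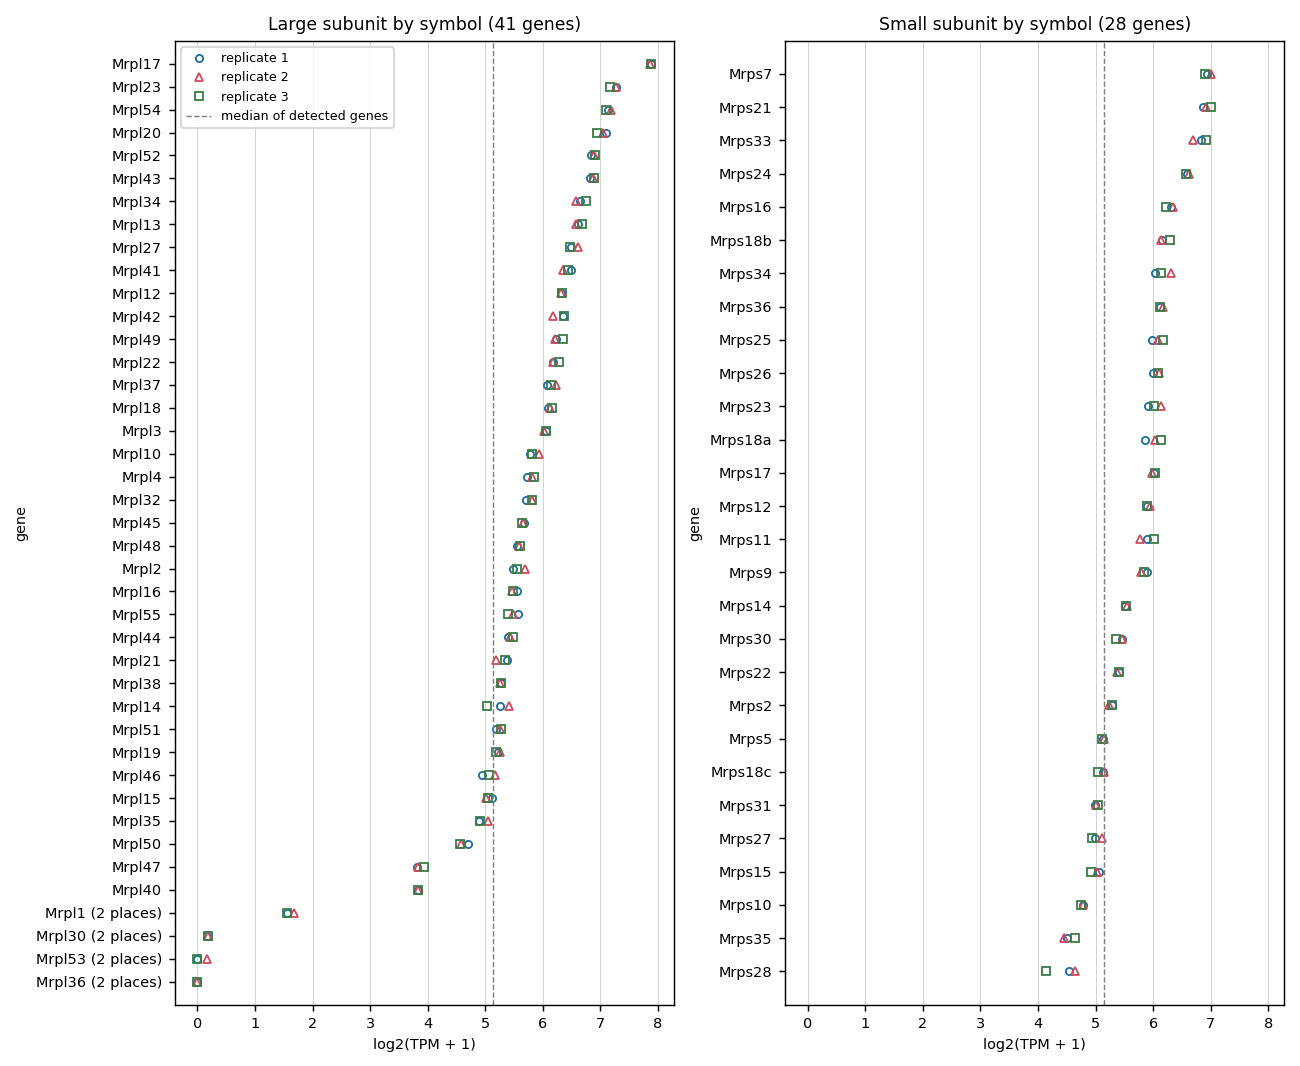
Level of each member in each library on the log2(TPM + 1) scale, with large-subunit symbols on the left and small-subunit symbols on the right. Symbols mark the 3 libraries and the dashed line the median of detected genes (34.3 TPM). Mrpl17 stood highest, and the 4 lowest members were those listed at 2 places in the genome.

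Among large-subunit genes, Mrpl17 was the highest of all members. It is a homolog of bacterial ribosomal protein bL17, and it was at 236, 233 and 234 TPM in replicates 1, 2 and 3. That is 1.56 times the mean of the next member, Mrpl23, and its log2 difference from the median of detected genes was 2.74 ± 0.02 (SE; adjusted p = 8.9e-12 by limma). Mrpl17 has the gene ID 171061 and 5 listed exons within chr1:170652295-170653869 of rn6, minus strand. Mrpl23, whose bacterial relative lines the exit of the peptide tunnel, was at 154, 154 and 143 TPM. Mrpl54, a protein without a bacterial homolog, was at 139, 144 and 137 TPM. Mrpl20 was at 136, 131 and 122 TPM, and Mrpl52, Mrpl43, Mrpl34 and Mrpl13 followed at means of 117, 115, 99.96 and 97.6 TPM. These 8 genes were above the median of detected genes by limma.

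At the other end, 4 large-subunit genes stood apart from the rest. Mrpl36 had no count in any library, which allows a level of up to 0.237, 0.255 and 0.255 TPM in replicates 1, 2 and 3 (3 counts per library, for counting error only). Mrpl53 had 0, 1 and 0 counts, Mrpl30 had 2, 2 and 2, and Mrpl1 had 31, 33 and 29, or 1.94, 2.21 and 1.94 TPM. These 4 are the members that the authors' table lists at 2 places in the genome, with the exons of each copy joined into 1 row. Of all 506 genes listed so, 89.9% did not reach 1 TPM in each library, against 37.8% of the 16831 genes listed at 1 place. How reads with several matches were counted is not given in the sources used here, and its part in these low values was not tested. The listed length of such genes sums both copies.

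The next lowest large-subunit genes were Mrpl40 at 13.2, 13.2 and 13.2 TPM and Mrpl47 at 13.2, 13.2 and 14.3 TPM. Mrpl50 was at 25.1, 22.8 and 22.7 TPM, and Mrpl35 at 28.6, 32.3 and 28.9 TPM. All 4 were below the median of detected genes by limma, and each library of each was under it. Exons of Mrpl47 overlap those of Actl6a on the other strand, and whether the counting used strand is not stated in the sources, which leaves its level uncertain. Mrps7 and Mrpl13 overlap Gga3 and Mtbp in the same way.

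Among small-subunit genes no member fell under 16.6 TPM in any library. Mrps7, a homolog of the bacterial protein uS7 that binds the head of the small subunit, was at 122, 128 and 119 TPM. Mrps21 was at 116, 120 and 128 TPM, Mrps33 at 113, 102 and 119 TPM, and Mrps24, the uS3 homolog at the mRNA entry, at 94.8, 97.2 and 94.2 TPM. Mrps16, Mrps18b, Mrps34 and Mrps36 followed at means of 77.3, 72.3, 70.7 and 69.2 TPM. Mrps36 carries an S symbol, but its product is now assigned to the 2-oxoglutarate dehydrogenase complex, and the RefSeq table names the gene Kgd4.

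The lowest small-subunit gene was Mrps28 at 22.4, 24.0 and 16.6 TPM. Mrps35 was at 21.7, 20.9 and 23.8 TPM and Mrps10, the uS10 homolog, at 26.6, 26.6 and 25.7 TPM. Mrps15, Mrps27, Mrps31, Mrps18c and Mrps5 had means between 31.1 and 34.1 TPM. Of these 8, Mrps28, Mrps35, Mrps10, Mrps15, Mrps27 and Mrps31 were below the median of detected genes by limma. Mrps5, which lies near the mRNA channel, was at 34.1, 34.5 and 33.7 TPM, on the median itself.

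The large-subunit median was slightly under the small-subunit median in each library. It was 49.8, 50.5 and 48.8 TPM for the large subunit and 58.2, 57.3 and 60.9 TPM for the small subunit in replicates 1, 2 and 3. The difference of medians of log2(TPM + 1), large minus small, was -0.22, -0.18 and -0.31, with a mean of -0.24 ± 0.07 (SD, n = 3). All 4 genes listed at 2 places are in the large subunit, and without them the difference was -0.11 ± 0.06, with -0.04 in replicate 2. With means over members in place of medians it was -0.40. That value includes the 4 genes listed at 2 places, each at a mean of 2.03 TPM or less, which pull the large-subunit mean down. The difference of means was not computed without them, so its sign among the other members is not given here. By CPM, which is scaled by library total and not by length, the difference of medians was -0.15 ± 0.05. No test was made over genes, which are not replicates. Of the tested members, 30 of 40 large-subunit and 20 of 28 small-subunit genes were above the median of detected genes, and 7 and 6 were below. Over all genes tested, 37.6% were above and 58.9% below.

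Symbols and structure differ for a pair of S-named genes, since the products of Mrps30 and Mrps18a sit in the large subunit. Mrps30 was at 43.1, 42.9 and 40.1 TPM and Mrps18a at 57.3, 64.4 and 68.9 TPM. With both moved to the large subunit and Mrps36 left out, the difference of medians was -0.19 ± 0.08. Within the large subunit, the medians of 16 proteins without a bacterial homolog and of 25 with one differed by -0.16 ± 0.05 on the log2 scale. Within the small subunit the same difference, over 9 and 16 genes, was 0.16 ± 0.15. The difference thus had opposite signs in the subunits and its SD was close to its size in the small one.

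A further 10 rows of the table encode mitochondrial ribosomal proteins under spellings or symbols outside the rule. Of these, 9 were above the median of detected genes by limma, where 37.6% of all genes tested were. Aurkaip1, a small-subunit protein first named for binding Aurora kinase A, was at 185, 190 and 179 TPM, above every member but Mrpl17. Chchd1, also of the small subunit, was at 105, 92.8 and 95.0 TPM, and Dap3, a GTP-binding protein of the small subunit, averaged 66.3 ± 3.54 TPM. Gadd45gip1, at the tunnel exit of the large subunit, averaged 71.6 ± 3.56 and Ptcd3 42.3 ± 2.23 TPM. Mrpl57 and Mrpl58, listed under their older symbols Mrp63 and Ict1, were also above. Of the lower-case symbols, mrpl9 averaged 72.6 ± 5.77 and mrpl11 63.8 ± 3.71 TPM. The third, mrpl24, was the row below the median, at 26.1 ± 1.65 TPM, and its exons overlap those of Rrnad1 on the other strand. Mrpl28, Mrpl33, Mrpl39 and Mrps6 were not analysed here.

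Small groups within the ribosome were compared directly. In the stalk that recruits translation factors, Mrpl12 binds to Mrpl10 in several copies. Mrpl12 was at 78.6, 78.6 and 79.5 TPM, against 53.7, 60.3 and 55.2 TPM for Mrpl10, and was higher in 3 of 3 libraries. The log2 ratio was 0.49 ± 0.05 (SE; adjusted p = 1.75e-13 by limma over 32 gene pairs). Mrpl12 was also above mrpl11, at the stalk base, by a log2 ratio of 0.31 ± 0.05, and by 1.32 by CPM. Mrpl10 was under mrpl11, by -0.18 ± 0.05 (adjusted p = 0.00107 by limma), and lower in 3 of 3 libraries. Without replicate 3 the adjusted p was 0.0512 by limma. By CPM the direction turned, with a log2 ratio of 0.95 and Mrpl10 above mrpl11, whose listed lengths are 1699 and 775 bases. The SE that limma assigned was 0.0521 for every pair, which may be too small for pairs that vary more than the average, so the values of the libraries carry more weight than these p-values. Over all 32 pairs the first gene was higher in 6 (18.8%) and the second in 26 (81.2%).

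Mrps18a, Mrps18b and Mrps18c are paralogs of 1 bacterial protein that occupy different places in the ribosome. Mrps18b, at 70.0, 69.6 and 77.3 TPM, was above Mrps18c, at 34.0, 34.3 and 31.8 TPM, by a log2 ratio of 1.11 ± 0.05. Mrps18a exceeded Mrps18c by 0.92 ± 0.05. The difference between Mrps18a and Mrps18b was small (-0.19 ± 0.05, adjusted p = 0.000641 by limma), and their ranges over the libraries do not touch, but without replicate 1 the adjusted p was 0.0605 by limma, and by CPM the log2 ratio was -0.55. Mrpl58, a peptidyl-tRNA hydrolase that rescues stalled ribosomes, averaged 69.2 ± 4.74 TPM, against 17.4 ± 1.64 TPM for the release factor gene Mtrf1l, a log2 ratio of 1.99 ± 0.05.

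The largest contrast was with the ribosome of the cytosol. Some universal protein families have both a mitochondrial and a cytosolic member, and 25 such pairs were compared, with mrpl11 and mrpl24 included for families uL11 and uL24. Among the 19 pairs whose genes are both listed at 1 place, the cytosolic gene was higher in 19, with a median ratio of 26.5-fold and a range of 11.3-fold to 111-fold. The narrowest gap was in family uL23, with Mrpl23 at 150.4 ± 6.33 and Rpl23a at 1700 ± 23.0 TPM. Families uS3, uL11, uL18 and uL22 followed at 14.3-fold, 17.4-fold, 18.9-fold and 20.5-fold. The widest was uL29, with Mrpl47 at 13.6 ± 0.624 and Rpl35 at 1521 ± 18.8 TPM, then uS5 with Mrps5 at 34.1 ± 0.403 and Rps2 at 2640 ± 107 TPM. Families uL24, uS14 and uL10 had ratios of 60.0-fold, 59.2-fold and 54.3-fold. This order depended on the division by length, since by CPM the log2 ratio of Mrpl47 over Rpl35 was -4.69, against -6.80 by TPM, and the widest of the 19 pairs was Mrpl10 and Rplp0. The narrowest by CPM was also Mrpl23 and Rpl23a, at -3.56.

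The other 6 families include a gene listed at 2 places, and their ratios ran from 0.739-fold to 7950-fold. In family uL2 the mitochondrial gene was the higher one, with Mrpl2 at 46.7 ± 3.36 and Rpl8 at 34.5 ± 1.70 TPM, but Rpl8 is listed at 2 places and by CPM the direction turned, with a log2 ratio of -0.88. The widest of the 6 was uL30, where Mrpl30 had 2 counts in each library and the ratio was set in part by the 0.1 TPM added, with a log2 ratio of -12.96 and, with 1 TPM added, of -10.65. Cytosolic ribosomal protein genes have many near-identical processed copies, so their levels are uncertain, and the ratios rest on the listed lengths.

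**Figure D2:**
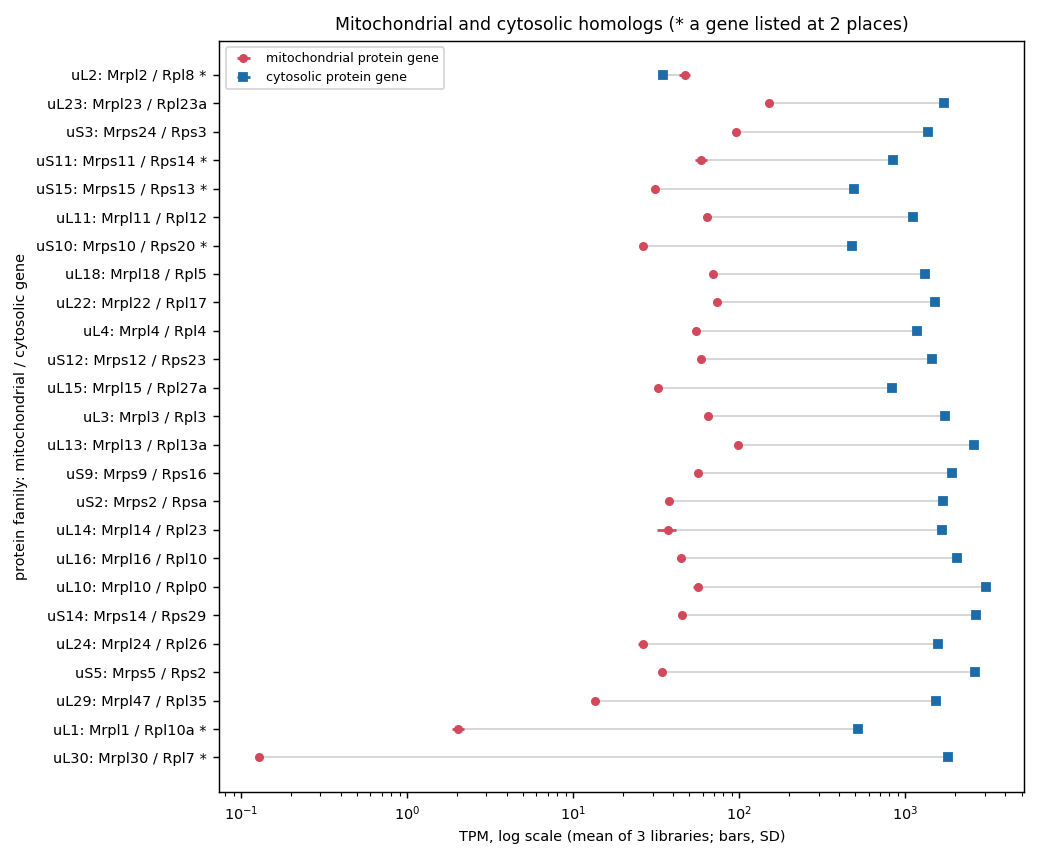
Mean TPM of the mitochondrial (circles) and cytosolic (squares) member of 25 universal ribosomal protein families on a log scale, with SD over 3 libraries. Where both genes are listed at 1 place the cytosolic gene lies 11.3-fold to 111-fold to the right, and asterisks mark the 6 families with a gene listed at 2 places.

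Set against lists of related function, members lay between the factors that build or serve the mitochondrial ribosome and the subunits of respiratory complex I. On the log2(TPM + 1) scale the median over members minus that over 78 cytosolic ribosomal protein genes was -4.57 ± 0.03 (SD, n = 3). Their summed levels were 4176 ± 33.9 and 96180 ± 650 TPM. The median over members minus that over 32 nuclear-encoded complex I genes, which the mitochondrial ribosome's products join in the membrane, was -1.60 ± 0.05. All 31 complex I genes with a count were above the median of detected genes by limma, where 37.6% of all genes tested were. Members and these lists differ in length and in how many genes are listed at 2 places, and no test was made between lists.

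Of 19 measured assembly factors, 2 were above and 14 below the median of detected genes by limma, beside 37.6% above and 58.9% below over all genes tested. The 2 above were the RNA helicase Dhx30 at 58.0 ± 0.870 and the large-subunit factor Malsu1 at 41.9 ± 2.59 TPM. The lowest were the methyltransferase gene Mettl15 at 2.15 ± 0.328 TPM and Nsun4 at 0.0467 ± 0.0179 TPM, and Nsun4 is listed at 2 places. Of 15 measured translation factors, 3 were above and 11 below. Oxa1l, the insertase that receives newly made proteins at the inner membrane, was at 157 ± 2.40 TPM, the elongation factor Tufm at 82.8 ± 3.23 and the mRNA-binding protein gene Lrpprc at 46.8 ± 1.37 TPM. Taco1, an activator of Cox1 synthesis, was at 5.97 ± 0.356, and Mtrfr, a rescue factor listed under an older symbol, at 4.06 ± 0.631 TPM. Of 6 transcription factors of mitochondrial DNA, 2 were above and 4 below, shares near those of all genes tested, with the DNA-packaging factor Tfam at 62.4 ± 1.57 and Mterf3 at 50.4 ± 2.91 TPM above, and Polrmt, the RNA polymerase, at 14.2 ± 0.584 and Tefm at 8.48 ± 1.09 TPM below. These lists' medians were 18.2, 17.7 and 17.6 TPM for assembly, translation and transcription.

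**Figure D3:**
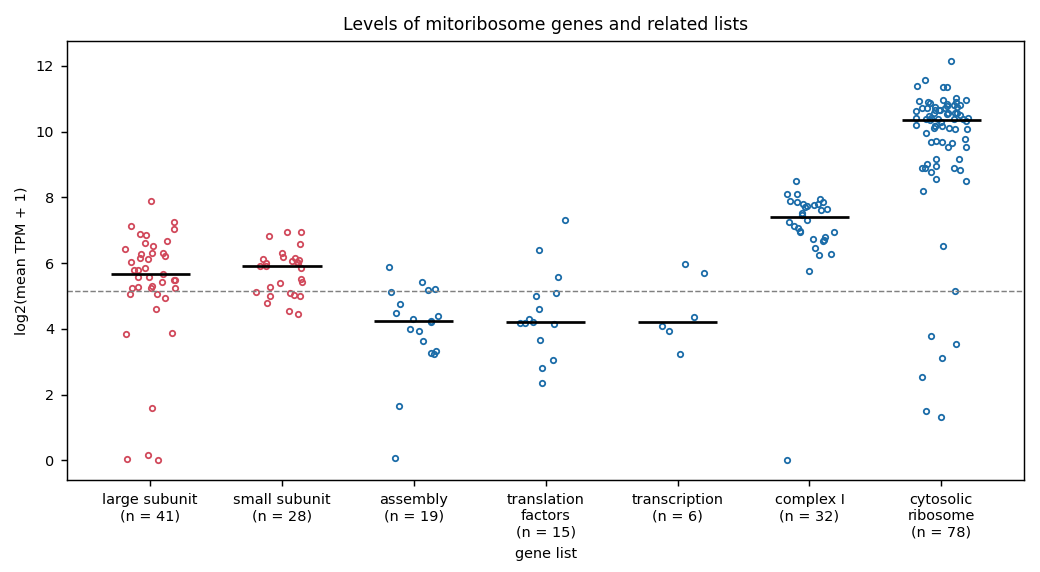
Mean level of each gene on the log2(TPM + 1) scale in 7 lists, with members in red, other lists in blue, a black bar at each list's median and the dashed line at the median of detected genes. The large and small subunits lie above assembly, translation and transcription factors and below complex I and the cytosolic ribosome.

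Levels of members were close between libraries. The median coefficient of variation over the 66 detected members was 4.19%, against 4.49% over all detected genes. Over 52 members and 2859 other detected genes with mean counts of 244 to 705, the chi-square of the counts around a shared share of each library was 0.840 and 1.04 per degree of freedom at the median. Counting noise alone gives a mean of about 1 and a median below 1. These medians therefore do not show a spread at or under counting noise. The members with the widest range were Mrps28, whose highest library was 1.45 times its lowest with 117, 117 and 81 counts, and Mrpl14 at 1.31 times with 243, 253 and 194 counts. In both, replicate 3 was the low library. Mrps34, Mrps18a and Mrps11 followed at 1.21, 1.20 and 1.18 times. Ranges of Mrpl53 and Mrpl36, with libraries at 0, were not computed.

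Order among members followed the listed gene length. Over the 65 members listed at 1 place, Spearman's rho between length and mean TPM was -0.60, and between length and mean count it was 0.19. Over 10462 detected genes the same values were -0.14 and 0.26. These are descriptions across genes, which share libraries, and TPM is itself a count divided by length. The 33 members of 501 to 998 bases had a median of 72.2 ± 1.10 TPM and the 32 of 1061 to 2402 bases one of 41.0 ± 0.301 TPM, whereas their median mean counts were 403 and 426. Thus 2 members with similar counts can differ in TPM by their listed length, as do Mrps21 (656 bases; 563, 542 and 579 counts; 122 TPM) and Mrps5 (2251 bases; 567, 534 and 522 counts; 34.1 TPM).

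**Figure D4:**
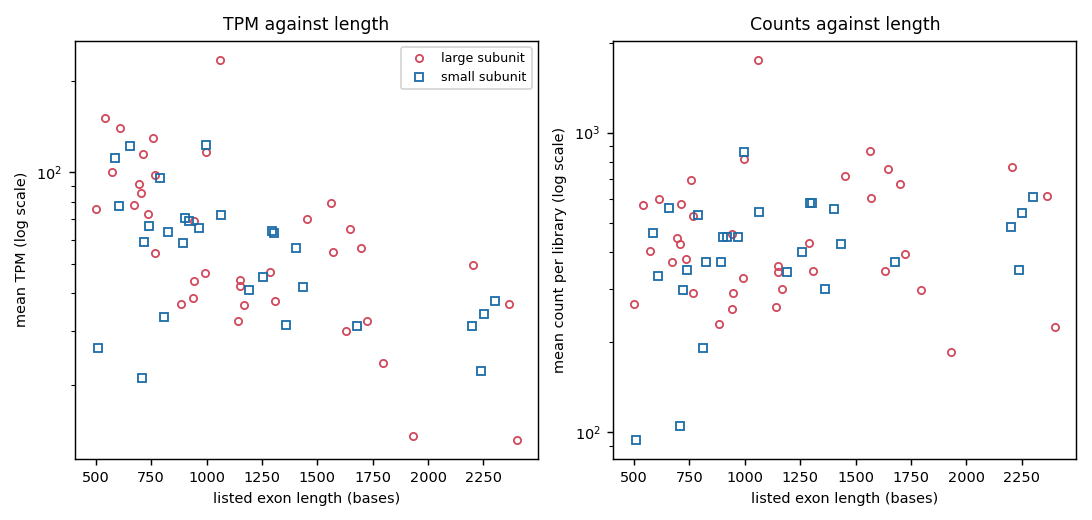
Mean TPM (left) and mean count per library (right), both on log scales, against listed exon length for the 65 members listed at 1 place, with circles for the large and squares for the small subunit. TPM declines with length (rho -0.60) and counts do not (rho 0.19).

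Positions of the gene starts were a feature the rule did not use. Of the 65 members listed at 1 place, 17 (26.2%) began within 1000 bases of a gene on the other strand that points away from them, against 9.44% of detected genes. In 1 case both genes are members, since Mrps11 and Mrpl46 begin 234 bases apart and were at 58.7 ± 4.86 and 32.4 ± 2.45 TPM. Other partners were as different in level as Fau, a ribosomal protein precursor gene beside Mrpl49, at 1352 ± 53.1 TPM, and Lrrc46 beside Mrpl10 at 3.68 ± 0.0923 TPM. Mrpl49 and Mrpl10 themselves were at 75.8 ± 4.15 and 56.4 ± 3.49 TPM. Mrpl47 starts 266 bases from Ndufb5, a complex I gene at 109 ± 3.80 TPM, and Mrps12 194 bases from Sars2, the mitochondrial seryl-tRNA synthetase gene, at 11.0 ± 0.325 TPM. The median over the 17 was 54.1 TPM and over the other 48 it was 63.4 TPM.

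Promoter windows from RefSeq (build GRCr8, 250 bases before to 50 after the start) were matched by gene ID for 55 of 69 members, with the first listed start where a gene had several. Each was searched on both strands for motifs of factors linked to nuclear genes of mitochondria and of ribosomes. AAGATGGC, a core of YY1 sites, was in 14 of 55 members (25.5%), against 5.74% of 8490 detected genes and 3.44% of all 27457 genes with a window. These letters hold an ATG, and in 11 of the 14 the match began between 10 bases before the start and the end of the window, as it did in 296 of the 487 detected genes with a match (60.8%). CCGGAAG, a core of ETS sites, was in 32.7% of members, 18.7% of detected genes and 9.22% of all genes with a window. The NRF-1 core, GCGCA and GCGC with any 1 base between them, was in 14.5%, 10.6% and 4.71% of the same sets, and CCAAT in 43.6%, 37.8% and 37.7%. TATAAA was in 12.7% of members and 6.12% of detected genes, but in 14.3% of all genes with a window. A YY1 match overlapped an ETS match in 0 of the 14 members and in 1 of the 487 detected genes. The YY1 core was in 24.2% of 33 large-subunit and 27.3% of 22 small-subunit windows. Among members listed at 1 place the median level was 54.1 TPM over the 13 with the YY1 core and 63.6 TPM over the 38 without it. A match is a run of letters, and binding was not measured.

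The 150 bases from 100 before to 50 after the start are shown for the highest and the lowest member of each subunit that is listed at 1 place and has a window, and for Mrpl46, which lies head to head with Mrps11, so that the matches can be read in their place. Capitals mark matches to the NRF-1, ETS and YY1 cores on either strand, all from GRCr8, written 5′ to 3′ on the gene's strand. Mrpl17 (chr1:169575650-169575799, minus strand) carries an NRF-1 core, and Mrps7 (chr10:101342542-101342691, plus) a YY1 core. Mrps10 (chr9:21122404-21122553, minus) carries an ETS and a YY1 core, Mrpl46 (chr1:142116981-142117130, minus) a YY1 core, and Mrpl40 (chr11:95637651-95637800, plus) none.
Mrpl17: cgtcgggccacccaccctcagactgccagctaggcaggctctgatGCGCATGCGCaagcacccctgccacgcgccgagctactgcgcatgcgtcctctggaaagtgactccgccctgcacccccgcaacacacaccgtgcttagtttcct
Mrpl40: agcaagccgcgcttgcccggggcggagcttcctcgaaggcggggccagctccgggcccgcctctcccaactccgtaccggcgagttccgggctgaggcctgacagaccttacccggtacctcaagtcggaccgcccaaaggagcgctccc
Mrps7: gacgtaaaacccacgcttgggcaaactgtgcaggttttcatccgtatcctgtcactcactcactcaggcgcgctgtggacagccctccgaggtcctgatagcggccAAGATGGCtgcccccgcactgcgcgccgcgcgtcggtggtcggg
Mrps10: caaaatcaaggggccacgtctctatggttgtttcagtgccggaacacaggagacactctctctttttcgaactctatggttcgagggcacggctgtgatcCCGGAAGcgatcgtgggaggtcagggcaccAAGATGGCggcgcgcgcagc
Mrpl46: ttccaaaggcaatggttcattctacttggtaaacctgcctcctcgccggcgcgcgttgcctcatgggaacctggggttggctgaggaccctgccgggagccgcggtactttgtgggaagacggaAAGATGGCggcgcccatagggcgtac

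**Figure D5:**
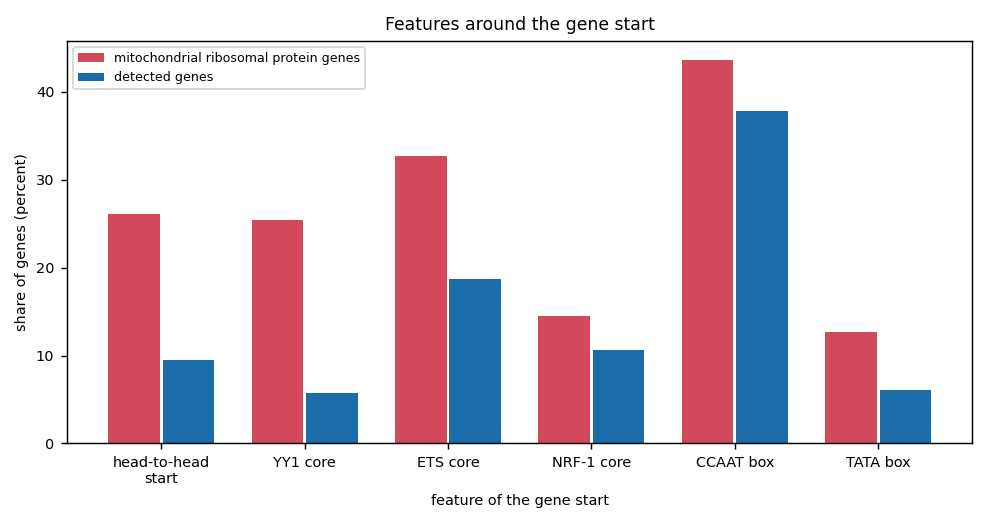
Share of members (red) and of detected genes (blue), in percent, with a head-to-head neighbour within 1000 bases or with each motif in the promoter window. The YY1 core was in 25.5% of members and 5.74% of detected genes, and head-to-head starts were at 26.2% and 9.44%.

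Pseudogenes bear on how reads can be placed. In the RefSeq table of GRCr8, 21 of the 65 members listed at 1 place have at least 1 pseudogene named after them, and their median was 63.2 TPM, against 55.5 TPM for the other 44. Mrpl30, which had 2 counts in each library, has 9, the most of any member. Reads from a gene with such copies can match more than 1 place, so the levels of these members are uncertain.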

How the data were processed

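Per the file headers, the authors deposited counts for each gene, with gene lengths and the TPM made from them. The submitters' processing notes name STAR 2.5.2b, Subread and rn6. Which annotation and strand setting were used, and how reads that match several places were counted, is not given in the sources used here. The deposited TPM differed by at most 0.0005 from TPM recomputed here. Of the columns, 3 of other values per library and 6 of totals were not used, and 2 rows that name no gene were dropped. A gene was taken as listed at 2 places when its exons lay on more than 1 chromosome or strand. It was also taken so when the first and second equal parts of its exon list had the same exon lengths, in the same or reverse order.

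Log2(TPM + 1) was tested with limma 3.58.1 (R 4.3.3) with a variance trend, two-sided, as the mean difference over libraries from 1 TPM and from each library's median of detected genes, over 13345 genes with a count, at an adjusted p under 0.05. Gene pairs were tested on log2 ratios of TPM with 0.1 added, without trend. The steps were tested on simulated data. With 1 group there is no contrast for a count model. Libraries differed by a chi-square of 1.67 to 2.35 per degree of freedom over genes with 20 or more counts in both libraries together, so none was treated as deposited under 2 names. At the members' median length 3 counts are 0.407 to 0.437 TPM, and such floors reflect counting error alone, because no molecular identifiers were used.

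Symbols of lists and pairs were matched as written (151 of 172), without regard to case (3), by gene ID (1) or by a synonym (8) in the RefSeq table, and 9 were not matched. Named genes are the 8 highest and 8 lowest members of each subunit, members under 1 TPM in a library, members listed at 2 places, in neither direction or with the widest range between libraries, the pairs, and the ends of the related lists. Mrpl10 to Mrpl12 and the homolog families came from the pairs, of which 2 are not reported here and were left out of the fit. Members with a head-to-head neighbour or an antisense overlap were named after their values were seen. Members, lists and tests were chosen with earlier results of these data known. Alternatives were other pseudocounts, filters, levels and variance estimates, leaving out each library, and other member sets.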

Additional observations from a re-analysis of the deposited data

How the results depend on the processing

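The members above 1 TPM numbered 65 to 69 and those above the median of detected genes 48 to 61 over all alternatives run. Members below that median numbered 10 to 15, except 5 when the median was taken over all genes with a count. Without each replicate in turn they numbered 10 to 13. The large minus small difference was negative in every alternative run. Among members listed at 1 place, however, both quartiles of mean TPM were higher in the large subunit, so the direction depended on the summary used. The difference was -0.40 by the mean over members, which keeps in the genes listed at 2 places and was not taken without them. By medians it was -0.15 by CPM, -0.11 without the genes listed at 2 places and -0.12 with the members at 1 TPM or more. Without each replicate it was between -0.27 and -0.20. With the lower-case symbols, an alternative chosen after seeing the data, as was leaving out genes listed at 2 places elsewhere, it was -0.18. Without genes listed at 2 places the difference from cytosolic ribosomal proteins was -4.64 and from complex I -1.59. The median SD of log2(TPM + 1) over members was 0.0598, and 0.0391 to 0.0596 without each replicate, the lowest without replicate 3. Pairs with the second gene higher numbered 25 without replicate 1, where Mrps18a and Mrps18b no longer passed, 25 without replicate 3, where Mrpl10 and mrpl11 no longer passed, and 26 in the other alternatives. By CPM, 2 pairs turned, with log2 ratios of -0.88 for Mrpl2 over Rpl8 and 0.95 for Mrpl10 over mrpl11. No paired analysis was possible because the labels give 1 group. Mrpl36, Mrpl53 and Mrpl30 had at most 2 counts in a library, so their levels are poorly determined. Each is listed at 2 places, and the parts of depth and of read counting in these values were not tested.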
